A study of Mus musculus with 4 samples.

Results

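Immediate early genes were followed in Lgr5-GFPhigh cells, the intestinal cells that carry the most GFP in mice whose Lgr5 gene also drives GFP. The 10 genes Fos, Fosb, Jun, Junb, Jund, Egr1, Atf3, Ier2, Dusp1 and Zfp36 were read by symbol from a table of 18436 genes, and all 10 were found and passed the filter on low values that left 12621 genes. There were 2 Lgr5-CREPTWT and 2 Lgr5-CREPTKO mice, all of the C57BL/6 strain. Every mouse carried the Lgr5-GFP-CreERT2 allele, which places GFP and a tamoxifen-inducible Cre recombinase under the Lgr5 gene. The Lgr5-CREPTKO mice also carried CREPT fl/fl, while the Lgr5-CREPTWT mice had no floxed CREPT. Both genotypes received tamoxifen into the peritoneum at 1 mg a day for 5 days and were sorted on day 7. Crypts were freed in cold PBS with EDTA, broken into single cells with TryPLE and sorted by flow cytometry before RNA was taken. The Lgr5-GFP allele is mosaic in adults, so crypts without GFP did not contribute. The study used male and female mice aged 6 to 8 weeks. The sex of each of these mice, the sort day and the handling time of each preparation are not given in the sources used here.

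Immediate early genes are transcribed from factors already present in the cell, so their RNA rises soon after a growth factor, stress or injury signal. The signal runs through Ras and the MAP kinases to serum response factor, its ETS partners and CREB at the promoters. The Fos and Jun proteins then pair as AP-1 to switch on later genes, while products such as Dusp1 and Zfp36 shut the response down. Many of these RNAs carry AU-rich elements in the 3′ untranslated region (UTR) and are short-lived. Separation and sorting of tissue are widely known to induce the same genes, so their level in sorted cells may hold RNA made before and after the cells left the animal, which these data cannot tell apart.

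All values below are FPKM (fragments mapped to a gene, divided by its transcript length and by the total fragments of that library) as the authors deposited them. Their sums ran from 468830 to 499327 over the mice. The table holds no read counts. Relative depth was read from the smallest values above 0 of small RNA genes, which were assumed to rest on single reads. Their median over 11 gene lengths was 0.986 to 1.035 times that of Lgr5-CREPTWT mouse 1 in the other 3 mice. If the assumption holds, depth differed little between libraries. Rprd1b, which encodes CREPT, was at 17.69 and 18.09 FPKM in the Lgr5-CREPTWT mice and at 6.65 and 7.36 FPKM in the Lgr5-CREPTKO mice (limma adjusted p = 0.028). Lgr5 was present in every mouse, at 37.7 to 60.1 FPKM. The 7 stromal markers summed to 0.1 to 0.54 FPKM and the 4 endothelial markers to 0.36 to 0.49 FPKM, so genes that define these cells were near 0. One library stood apart for the genes described here. Lgr5-CREPTWT mouse 2 had the lowest value of the 4 mice for all 10 immediate early genes, against 26.5% of all genes tested, and the genotype comparison is therefore given with and without this mouse.

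The 10 genes were among the abundant RNAs of these cells. Together they summed to 3126 and 1454 FPKM in the Lgr5-CREPTWT mice and to 2737 and 2601 FPKM in the Lgr5-CREPTKO mice, which was 0.631%, 0.291%, 0.584% and 0.549% of each mouse's summed FPKM. Both Lgr5-CREPTKO mice thus lay between the Lgr5-CREPTWT mice. In bulk RNA, fewer cells that hold a transcript and less of it per cell cannot be told apart. By mean FPKM over the 4 mice, Fos was first at 655.7, followed by Jun at 313.8, Egr1 at 281.2, Zfp36 at 244.3 and Ier2 at 241.1. Fosb followed at 218.7, Junb at 166.6, Atf3 at 137.0, Dusp1 at 111.9 and Jund at 109.0. Fos was above Jun in 4 of 4 mice. No other neighbours in this order kept their places in every mouse. Dusp1 was above Jund in 1 of 4.

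**Figure D1:**
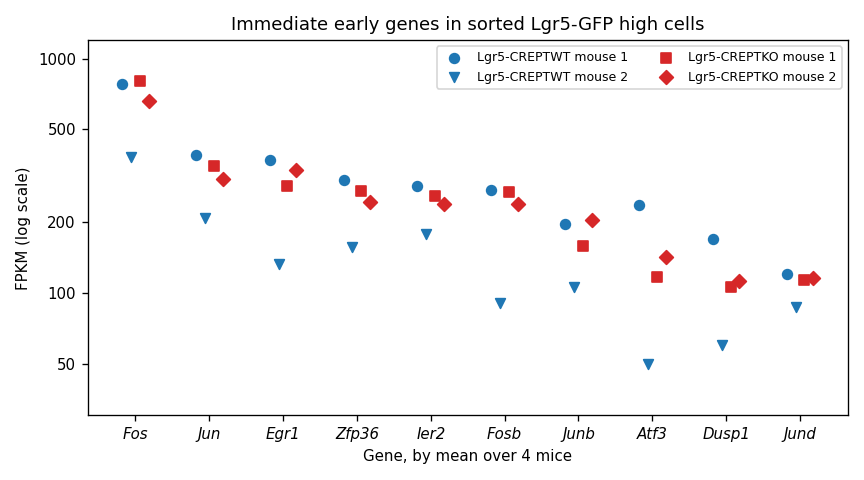
FPKM (log scale) of each immediate early gene in each of the 4 mice, with genes ordered by their mean. Each point is 1 mouse. Lgr5-CREPTWT mouse 2 (triangles) has the lowest value for all 10 genes, and the Lgr5-CREPTKO mice lie between the Lgr5-CREPTWT mice for 8 genes. The share of all genes with the latter order was not taken.

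The Fos family supplies the AP-1 subunits that cannot pair with themselves and need a Jun partner. Fos was at 777.36 and 382.03 FPKM in Lgr5-CREPTWT mice 1 and 2, and at 803.41 and 659.86 FPKM in Lgr5-CREPTKO mice 1 and 2. Only Lgr5-CREPTWT mouse 2 was low, and the genotypes overlapped, with means of 579.7 ± 280.0 and 731.6 ± 102.0 FPKM (SD, n = 2 each). The log2 fold change of Fos, Lgr5-CREPTKO minus Lgr5-CREPTWT on the log2(FPKM + 0.5) scale used throughout, was 0.42 with a standard error (SE) of 0.34 (limma adjusted p = 0.504). Fosb, its close relative, was at 274.78 and 90.92 FPKM in Lgr5-CREPTWT mice and at 269.61 and 239.58 FPKM in Lgr5-CREPTKO mice. Mouse 2 of the Lgr5-CREPTWT group was again alone at the low end, and both Lgr5-CREPTKO values fell inside the Lgr5-CREPTWT range. The log2 fold change of Fosb, 0.68 (SE 0.51, limma adjusted p = 0.461), was the largest of the 10 and did not pass the test.

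Fos lies on chromosome 12 of GRCm38.p6 at 85473890 to 85477274 on the plus strand and has 4 exons. Its promoter is shown because Fos is the highest of the 10 genes and the window holds both TGACG and TATAAA. The 250 bases before its start in RefSeq (chr12:85473640-85473889, plus strand) read as follows, with TGACG, the conserved part of the CREB binding site, and TATAAA, the TATA motif, in capitals.
Fos promoter: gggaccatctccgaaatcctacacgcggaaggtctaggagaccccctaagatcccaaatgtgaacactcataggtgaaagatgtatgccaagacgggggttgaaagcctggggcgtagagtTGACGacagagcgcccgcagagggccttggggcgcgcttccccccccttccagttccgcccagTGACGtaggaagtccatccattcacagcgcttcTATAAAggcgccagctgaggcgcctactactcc
TGACG begins at bases -129 and -66 and TATAAA at base -33 from the start.

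The Jun family supplies the subunits that bind DNA alone or with a Fos partner. Jun was at 388.51 and 209.09 FPKM in Lgr5-CREPTWT mice and at 349.6 and 308.1 FPKM in Lgr5-CREPTKO mice. Both Lgr5-CREPTKO values lay inside the Lgr5-CREPTWT range, and the log2 fold change of Jun was 0.20 (SE 0.30, limma adjusted p = 0.722). Junb, which often opposes Jun, was at 197.46 and 105.65 FPKM in Lgr5-CREPTWT mice and at 158.63 and 204.47 FPKM in Lgr5-CREPTKO mice. It was 1 of 2 genes, with Fos, whose highest value was in a Lgr5-CREPTKO mouse. The log2 fold change of Junb was 0.32 (SE 0.31, limma adjusted p = 0.582). Jund, the member of the family that is made steadily in most cells, was at 120.46 and 86.75 FPKM in Lgr5-CREPTWT mice and at 113.16 and 115.77 FPKM in Lgr5-CREPTKO mice. It varied least among the 10 genes in the Lgr5-CREPTWT mice and in the Lgr5-CREPTKO mice. Its log2 fold change was 0.16 (SE 0.16, limma adjusted p = 0.587). All of the Jun genes have 1 exon and no intron. Jun lies on chromosome 4 at 95049036 to 95052222 (minus strand), and Junb and Jund lie on chromosome 8 at 84976909 to 84978748 (minus strand) and 70697739 to 70700616 (plus strand).

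Egr1, a zinc finger factor that binds GC-rich promoters, was at 370.8 and 132.88 FPKM in Lgr5-CREPTWT mice and at 285.11 and 336.07 FPKM in Lgr5-CREPTKO mice. Both Lgr5-CREPTKO mice were inside the Lgr5-CREPTWT range. The log2 fold change of Egr1 was 0.48 (SE 0.48, limma adjusted p = 0.587). Ier2, a small nuclear regulator encoded by a single exon, was at 285.53 and 179.27 FPKM in Lgr5-CREPTWT mice and at 260.37 and 239.36 FPKM in Lgr5-CREPTKO mice, with a log2 fold change of 0.14 (SE 0.23, limma adjusted p = 0.747).

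Atf3, a stress-induced factor of the ATF/CREB family that can pair with Jun proteins, differed most between mice. It was at 237.94 and 49.96 FPKM in Lgr5-CREPTWT mice and at 117.55 and 142.4 FPKM in Lgr5-CREPTKO mice. The Lgr5-CREPTKO mean, 130.0 ± 17.6 FPKM (SD, n = 2), was 0.546 times the value of Lgr5-CREPTWT mouse 1 and 2.6 times that of mouse 2. Its direction depends on the scale. The mean FPKM was lower in Lgr5-CREPTKO mice than in Lgr5-CREPTWT mice (143.9 ± 133.0, SD, n = 2), but the log2 fold change was 0.24 (SE 0.72, limma adjusted p = 0.869). Atf3 lies on chromosome 1 at 191170296 to 191183333 on the minus strand and has 4 exons. Its promoter is shown because the gene had the widest spread, as the 250 bases before the RefSeq start (chr1:191183334-191183583 of GRCm38.p6, minus strand), with the only TGACG, found here on the opposite strand as CGTCA, in capitals.
Atf3 promoter: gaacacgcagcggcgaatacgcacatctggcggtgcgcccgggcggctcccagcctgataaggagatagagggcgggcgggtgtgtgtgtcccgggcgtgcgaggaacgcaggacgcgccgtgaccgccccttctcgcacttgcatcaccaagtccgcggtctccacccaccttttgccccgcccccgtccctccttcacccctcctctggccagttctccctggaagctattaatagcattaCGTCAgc

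The attenuators act on the response itself. Dusp1, a phosphatase that switches MAP kinases off, was at 169.64 and 60.07 FPKM in Lgr5-CREPTWT mice and at 106.07 and 112.0 FPKM in Lgr5-CREPTKO mice. The Lgr5-CREPTKO mice were close to each other and in the middle of the Lgr5-CREPTWT range. As with Atf3, the mean FPKM of Dusp1 was lower in Lgr5-CREPTKO mice (109.0 ± 4.19 against 114.9 ± 77.5, SD, n = 2 each) while its log2 fold change was 0.11 (SE 0.48, limma adjusted p = 0.915). Zfp36, which binds AU-rich elements and brings about decay of the RNAs that hold them, was at 303.38 and 156.92 FPKM in Lgr5-CREPTWT mice and at 273.3 and 243.61 FPKM in Lgr5-CREPTKO mice. Its log2 fold change was 0.24 (SE 0.31, limma adjusted p = 0.683). Dusp1 lies on chromosome 17 at 26505591 to 26508472 and Zfp36 on chromosome 7 at 28376784 to 28379228, both on the minus strand. The Dusp1 promoter (250 bases before the RefSeq start, chr17:26508473-26508722 of GRCm38.p6, minus strand) is shown because it alone among the promoters searched for these genes holds the full CREB site TGACGTCA, which is in capitals with a further TGACG.
Dusp1 promoter: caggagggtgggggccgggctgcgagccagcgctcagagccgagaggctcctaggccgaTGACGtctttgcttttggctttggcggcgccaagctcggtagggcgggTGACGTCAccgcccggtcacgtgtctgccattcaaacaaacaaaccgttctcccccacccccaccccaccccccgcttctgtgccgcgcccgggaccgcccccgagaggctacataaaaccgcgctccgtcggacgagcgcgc

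Promoters of 8 of the 10 genes were found in the RefSeq table (250 bases before to 50 after the start), where Ier2 and Egr1 are missing, and were set beside all 27025 promoters, 1 per gene. Each motif was searched on both strands. GGGCGG, the GC box, was in 6 of the 8 (Fos, Fosb, Jun, Atf3, Dusp1 and Zfp36) against 35.9% of all promoters. TGACG, added to the search after the sequences were seen and contained in TGACGTCA, was in 5 (Fos, Fosb, Junb, Atf3 and Dusp1) against 21.0%. TATAAA was in Fos and Junb against 14.2%, TGACGTCA in Dusp1 alone against 1.88%, and the CArG box, the core to which serum response factor binds, in Zfp36 alone against 1.57%. TGANTCA, a common form of the AP-1 site, was in none of the 8 and in 7.93% of all promoters. Other forms of that site do not match this pattern and were not counted as AP-1 sites. Matches describe letters in this short window only. The window of Jund belongs to a RefSeq start that lies upstream of the gene start in the GENCODE annotation.

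The 3′ UTRs held a shared element that the choice of genes did not use. TATTTAT, the core of an AU-rich element, was searched on the sense strand in the GENCODE transcripts and was in 7 of the 10 genes, against 29.1% of 11386 genes tested that have a 3′ UTR model. It occurred 1.221 times per kilobase of 3′ UTR in the 10 genes and 0.286 times in all. A window of each of 4 genes is shown, as the highest gene, the gene of widest spread and the attenuators, with the element in capitals.
Fos, bases 643 to 672 after the stop codon: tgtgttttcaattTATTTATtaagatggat
Atf3, bases 1116 to 1145: aaaatattactTATTTATcccagtattcct
Dusp1, bases 94 to 123: agctggtcctTATTTATttaacacccccct
Zfp36, bases 571 to 600: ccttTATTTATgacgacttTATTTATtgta
Zfp36 RNA thus holds the element that its own protein is known to bind, 3 times in its 3′ UTR, as does Dusp1. Junb, Egr1 and Ier2 had none. The shorter ATTTA was present 2 times each in Junb and Egr1 and was absent from Ier2.

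The distance between mice of one genotype was uneven. Between the Lgr5-CREPTWT mice, mouse 1 exceeded mouse 2 by 1.39-fold for Jund, 1.59-fold for Ier2, 1.86-fold for Jun and 1.87-fold for Junb. The excess was 1.93-fold for Zfp36, 2.03-fold for Fos, 2.79-fold for Egr1, 2.82-fold for Dusp1, 3.02-fold for Fosb and 4.76-fold for Atf3. The median absolute difference of the 10 genes was 0.99 on the log2 scale, against 0.13 for all genes tested, whose 95th percentile was 0.64. Between the Lgr5-CREPTKO mice the 10 genes differed by 0.03 to 0.37, with a median of 0.18 against 0.13 for all genes, and 5 of the 10 were higher in mouse 1. Abundant genes as a whole varied less. Among the 1597 genes whose mean was 50 FPKM or more, the median absolute difference between the Lgr5-CREPTWT mice was 0.09. When these genes were ranked by mouse 1 minus mouse 2, Atf3 was at rank 2, Fosb at 6, Dusp1 at 7, Egr1 at 9 and Fos at 11. Zfp36, Junb and Jun followed at ranks 14, 15 and 16, Ier2 at 26 and Jund at 39. With the transcript lengths of the GENCODE annotation, the values correspond to 0.00991% (Atf3 in Lgr5-CREPTWT mouse 2) to 0.169% (Fos in Lgr5-CREPTKO mouse 1) of mapped fragments.

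**Figure D2:**
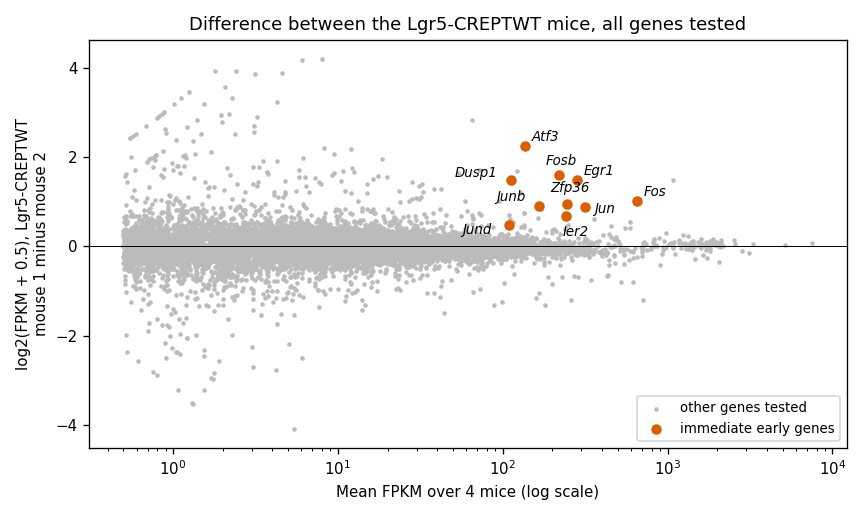
Each point is 1 of 12621 genes tested, with its mean FPKM over the 4 mice (log scale) against the log2(FPKM + 0.5) of Lgr5-CREPTWT mouse 1 minus that of mouse 2. The 10 immediate early genes (orange) all lie above 0, from 0.47 for Jund to 2.24 for Atf3, in a range of abundance where most genes are near 0.

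Markers of other cells were set beside this difference. The share of all genes highest in Lgr5-CREPTWT mouse 2 was not taken. Goblet markers summed to 1340 FPKM in Lgr5-CREPTWT mouse 1, 2150 in mouse 2, 742 in Lgr5-CREPTKO mouse 1 and 771 in mouse 2, and 6 of 6 were highest in Lgr5-CREPTWT mouse 2. Tuft cell markers summed to 17.1, 33.8, 14.3 and 5.87 FPKM in the same order, and the 4 of them that were tested were highest in Lgr5-CREPTWT mouse 2. The 10 immune markers summed to 25.8, 48.0, 6.61 and 82.5 FPKM, and none of the 8 tested was at its highest or lowest in Lgr5-CREPTWT mouse 2. Enterocyte markers summed to 367, 483, 299 and 478 FPKM and Paneth markers to 1050, 792, 582 and 1950 FPKM. Enteroendocrine markers summed to 111, 117, 41.2 and 51.6 FPKM, and 4 of 5 were highest in Lgr5-CREPTWT mouse 2. Of these 5, 3 were called lower in Lgr5-CREPTKO mice, as was 1 goblet marker, against 2.67% of all genes. The 6 goblet, 4 tested tuft and 5 enteroendocrine markers were all lower in both Lgr5-CREPTKO mice than in either Lgr5-CREPTWT mouse. This held for 31.0% of all genes. Their highest value could therefore only lie in a Lgr5-CREPTWT mouse. Between the Lgr5-CREPTWT mice, their median mouse 1 minus mouse 2 was -0.73, -1.02 and -0.13 on the log2 scale. The Lgr5-CREPTKO mice differed from each other most in immune and Paneth markers and little in immediate early genes. Stem cell markers summed to 5760, 5560, 6220 and 5990 FPKM, the least in Lgr5-CREPTWT mouse 2. Olfm4, at 5076.86, 4931.99, 5350.9 and 5181.04 FPKM, made up most of each sum. All 5 stem cell markers were higher in both Lgr5-CREPTKO mice than in either Lgr5-CREPTWT mouse, against 25.6% of all genes, and none passed the test. The part of any of these cell types in the low values of Lgr5-CREPTWT mouse 2 was not tested.

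The study asked how loss of CREPT in Lgr5-expressing cells alters their RNA. For the immediate early genes, no difference between genotypes passed the test. By limma's moderated test on all 12621 genes, 0 of the 10 were higher and 0 were lower in Lgr5-CREPTKO mice at an adjusted p below 0.05, against 0.412% and 2.67% of all genes, and 0 of the 10 had an unadjusted p below 0.05. Adjusted p ranged from 0.461 to 0.915. All 10 log2 fold changes were above 0, from 0.11 to 0.68 with a median of 0.24 against -0.01 for all genes, and they stayed above 0 under each scaling tried. The genotypes overlapped for every one of the 10, while 25.6% of all genes did not overlap and were higher in Lgr5-CREPTKO mice and 31.0% did not overlap and were lower. Of the 20 values in Lgr5-CREPTKO mice, 18 lay between the Lgr5-CREPTWT mice, and the share over all genes was not taken. This count largely restates that Lgr5-CREPTWT mouse 1 was high and mouse 2 low for these genes. The 95% interval of the log2 fold change included 1, a doubling, for 7 of the 10 genes, and was widest for Atf3 (-1.60 to 2.09) and narrowest for Jund (-0.26 to 0.58). For those 7 a doubling lies within the error of the comparison. Over so few mice an exact permutation test, two-sided, has a smallest p of 2 in 6 arrangements and cannot reach 0.05.

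The direction rested on Lgr5-CREPTWT mouse 2. Without it, all 10 log2 fold changes turned negative, from -0.88 for Atf3 to -0.07 for Jund with a median of -0.21, and both Lgr5-CREPTKO mice were below the remaining Lgr5-CREPTWT mouse for 8 of the 10, against 41.6% of all genes (limma adjusted p from 0.305 to 0.814). Without Lgr5-CREPTWT mouse 1, all 10 were positive, from 0.40 for Jund to 1.48 for Fosb with a median of 0.81, and both Lgr5-CREPTKO mice were above the mouse that remained for all 10, against 37.2% of all genes (limma adjusted p from 0.221 to 0.239). These counts restate which Lgr5-CREPTWT mouse was the highest or lowest of the 4 for each gene. Leaving out either Lgr5-CREPTKO mouse kept the 10 values positive, between 0.07 and 0.77.

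**Figure D3:**
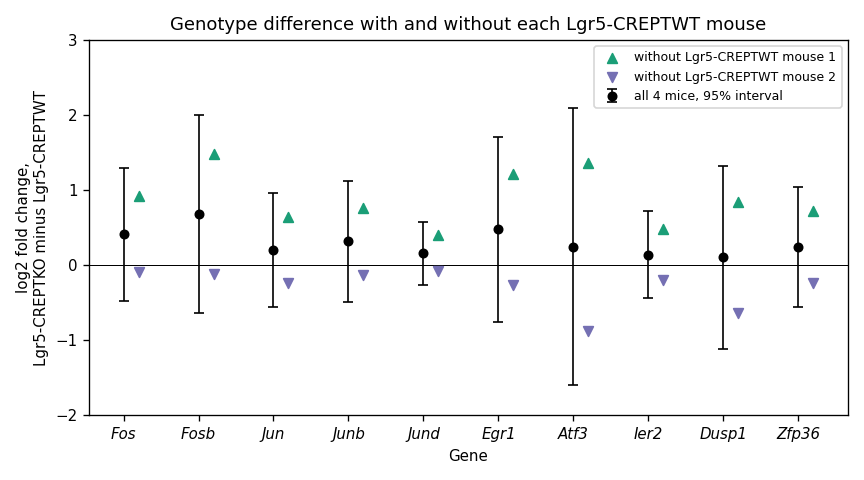
Log2 fold change, Lgr5-CREPTKO minus Lgr5-CREPTWT, of each immediate early gene with all 4 mice (black points, bars give the 95% interval of limma) and with 1 Lgr5-CREPTWT mouse left out (coloured triangles). All 10 values are negative without Lgr5-CREPTWT mouse 2 and positive without mouse 1.

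Other genes of the pathway were described by lists written with earlier results of these data known. None of the 115 listed genes tested passed the test between genotypes with all 4 mice. Leaving out Lgr5-CREPTWT mouse 2 leaves 1 mouse in its genotype, so only fold changes of listed genes are given for that setting. Among the 18 genes named from the lists by rule, the log2 fold change moved either way without that mouse. For example, that of Arc was 0.34 in place of 1.12 and that of Elk4 was 0.39 in place of 0.64. That of Btg2 was -1.26 in place of -0.91, that of Atf4 was -0.54 in place of -0.32, and that of Araf stayed at -0.67. All 18 kept their direction, which follows from their choice as genes whose genotypes did not overlap. Further rapidly induced genes, transcribed in the same phase as the 10, followed the same order of mice in part. Of 35 tested, 22 were lowest in Lgr5-CREPTWT mouse 2, against 26.5% of all genes. In Lgr5-CREPTWT mouse 1, 22 were highest, for which the share over all genes was not taken. The median mouse 1 minus mouse 2 of the 35 was 0.69 on the log2 scale. Nr4a1, an orphan nuclear receptor, was at 107.83 and 14.79 FPKM in Lgr5-CREPTWT mice and at 57.34 and 80.66 FPKM in Lgr5-CREPTKO mice. Cyr61, a secreted matrix protein, was at 153.44, 47.16, 135.61 and 153.83 FPKM in the same order of mice. Others of the list did not share the order. Myc, the growth regulator, was at 74.7, 91.01, 101.62 and 109.4 FPKM, with its lowest value in Lgr5-CREPTWT mouse 1. Nr4a1, Cyr61 and Myc were chosen after their values were seen. Btg2, an antiproliferative gene, was at 73.64, 44.88, 35.53 and 26.08 FPKM (log2 fold change -0.91, limma adjusted p = 0.134). Arc (log2 fold change 1.12, limma adjusted p = 0.254) and Ctgf (0.75, limma adjusted p = 0.304), both below 10 FPKM in every mouse, were higher in both Lgr5-CREPTKO mice than in either Lgr5-CREPTWT mouse without passing the test. Ctgf was near the filter of 0.5 FPKM, at 0.41 and 0.2 FPKM in Lgr5-CREPTWT mice and at 0.49 and 1.33 FPKM in Lgr5-CREPTKO mice.

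Other AP-1 proteins and dimer partners were mixed. Of 12 tested, 5 were lowest in Lgr5-CREPTWT mouse 2, against 26.5% of all genes. The median mouse 1 minus mouse 2 was 0.17, with a range from -0.79 for Batf2 to 2.82 for Fosl1. Fosl1, at 3.82 and 0.11 FPKM in the Lgr5-CREPTWT mice, is named after its values were seen, as is Batf2. Atf4, the effector of the integrated stress response, was at 166.03 and 123.19 FPKM in Lgr5-CREPTWT mice and at 113.41 and 114.96 FPKM in Lgr5-CREPTKO mice (log2 fold change -0.32, limma adjusted p = 0.262). Mafg, a small Maf protein, was at 8.32 and 10.08 against 11.79 and 10.74 FPKM (0.28, limma adjusted p = 0.25). The genotypes did not overlap for Atf4 or for Mafg.

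Upstream, the signalling genes lay close together in the Lgr5-CREPTWT mice. The 26 tested genes of the EGF ligands, receptor, Ras and MAP kinases had a median mouse 1 minus mouse 2 of 0.04. Of these, 12 were lowest in Lgr5-CREPTWT mouse 2, against 26.5% of all genes. Of the 4 ligands tested, Btc and Tgfa differed between the Lgr5-CREPTWT mice by -0.06 and -0.05, and Areg and Hbegf by 2.07 and 1.65. Areg was at 16.85 and 3.63 FPKM in Lgr5-CREPTWT mice and at 8.85 and 8.33 FPKM in Lgr5-CREPTKO mice, and Hbegf was at 70.25, 22.03, 56.32 and 65.41 FPKM, both named after their values were seen and both themselves known to be rapidly induced. Between genotypes, Araf (log2 fold change -0.67, limma adjusted p = 0.0608) and Map2k2 (-0.55, limma adjusted p = 0.0514), kinases in succession above ERK, came nearest to the threshold, and neither passed it. Araf was at 36.85 and 36.61 FPKM in Lgr5-CREPTWT mice and at 20.53 and 25.63 FPKM in Lgr5-CREPTKO mice. Egfr, the receptor, was at 12.67 and 10.27 against 14.33 and 15.14 FPKM (0.35, limma adjusted p = 0.173). Serum response factor and its cofactors gave a median mouse 1 minus mouse 2 of 0.02 over 7 genes. The ETS cofactor Elk4 was at 5.82 and 3.98 FPKM in Lgr5-CREPTWT mice and at 8.26 and 7.33 FPKM in Lgr5-CREPTKO mice (0.64, limma adjusted p = 0.136), its relative Elk1 had a log2 fold change of -0.22 (limma adjusted p = 0.345) and the actin-regulated cofactor Mkl2 one of 0.23 (limma adjusted p = 0.274).

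Among the attenuators, the 10 other MAP kinase phosphatases and Sprouty genes tested had a median mouse 1 minus mouse 2 of 0.14. Of these, 6 were lowest in Lgr5-CREPTWT mouse 2, against 26.5% of all genes. Dusp4 (log2 fold change 0.28, limma adjusted p = 0.23), Dusp16 (0.21, limma adjusted p = 0.35) and Spry2 (0.24, limma adjusted p = 0.308) were higher in both Lgr5-CREPTKO mice without passing the test. The 11 genes of AU-rich element binding and deadenylation had a median of -0.01. Zfp36l2, a close relative of Zfp36, was at 203.08 and 165.62 FPKM in Lgr5-CREPTWT mice and at 221.58 and 208.97 FPKM in Lgr5-CREPTKO mice (0.23, limma adjusted p = 0.295). Khsrp, a decay factor, had a log2 fold change of 0.18 (limma adjusted p = 0.225), and Cnot3, of the deadenylase complex, one of -0.23 (limma adjusted p = 0.298).

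Heat shock genes, which tissue separation is also known to raise, did not follow the immediate early genes. Of 14 tested, 3 were lowest in Lgr5-CREPTWT mouse 2, against 26.5% of all genes. In the same mouse 6 were highest, for which the share over all genes was not taken. The median mouse 1 minus mouse 2 of the 14 was -0.20. Their summed level was 4820 and 5800 FPKM in Lgr5-CREPTWT mice and 5800 and 4490 FPKM in Lgr5-CREPTKO mice. By this sum, Lgr5-CREPTWT mouse 2 and Lgr5-CREPTKO mouse 1 were the higher pair. The most abundant genes of the list, Hspa8 and Hsp90ab1, had that order. Not all of the list did, as Dnajb1 was at 48.25, 33.11, 37.56 and 33.74 FPKM in the same order of mice. Hspa1a, the inducible chaperone, was at 10.06 and 12.48 FPKM in Lgr5-CREPTWT mice and at 7.93 and 2.72 FPKM in Lgr5-CREPTKO mice (log2 fold change -1.17, limma adjusted p = 0.209). It shares most of its sequence with Hspa1b, so reads may be split between them.

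**Figure D4:**
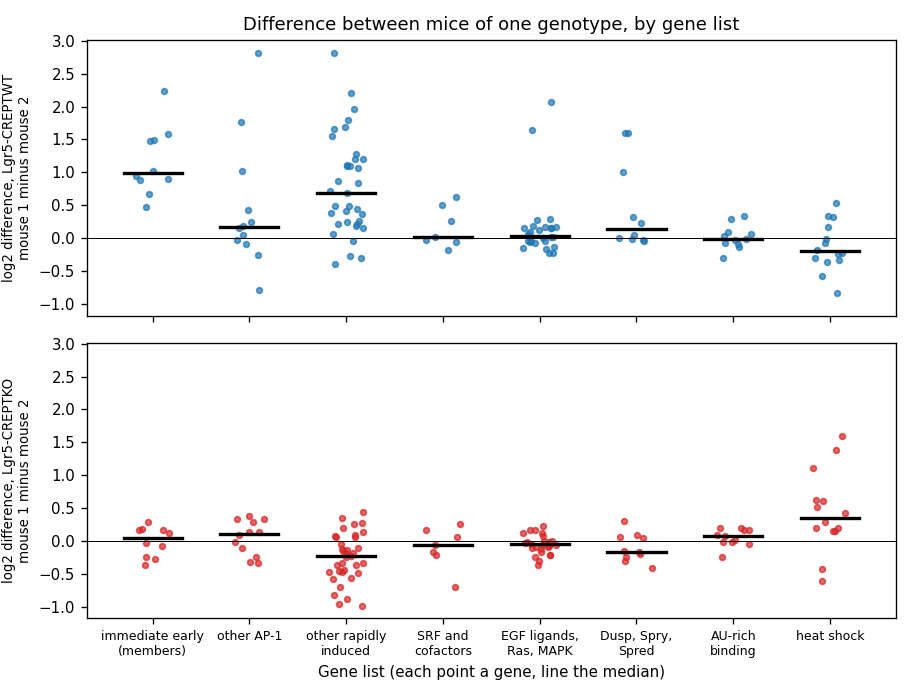
Difference on the log2(FPKM + 0.5) scale between mouse 1 and mouse 2 of the Lgr5-CREPTWT group (top) and of the Lgr5-CREPTKO group (bottom) for each gene (points) of each list, with the median as a line. In the Lgr5-CREPTWT mice the medians were 0.69 for other rapidly induced genes and -0.20 for heat shock genes, while all 10 immediate early genes were above 0. In the Lgr5-CREPTKO mice the medians were -0.23 and 0.35.

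The mean profile of the 10 genes, each centred on its own mean of log2 values, was 0.44 and -0.74 in Lgr5-CREPTWT mice and 0.15 and 0.15 in Lgr5-CREPTKO mice. Over the 4 mice, the 5 other genes nearest to it by Euclidean distance, among 9010 whose mean was 5 FPKM or more, were Sgk1, Mir6935, Ppp1r15a, Sik1 and Snora28, at distances of 0.158 to 0.252 against a median of 0.917 for all candidates. Sgk1, a kinase, was at 38.75, 17.72, 36.8 and 34.62 FPKM. Ppp1r15a, a regulatory subunit that restores translation after stress, was at 37.72, 17.72, 27.06 and 30.38 FPKM. Sik1, a salt-inducible kinase, was at 15.39, 5.3, 10.08 and 11.07 FPKM. Sgk1 and Ppp1r15a were also in the list of rapidly induced genes. Mir6935 and Snora28 lie within the genes Actg1 and Eif5, whose reads could be counted to them. All 5 had their lowest value in Lgr5-CREPTWT mouse 2, which follows from their choice by this profile. Sgk1, Ppp1r15a and Sik1 each overlap another gene in RefSeq, while none of the 10 immediate early genes does.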

How the data were processed

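RNA from sorted Lgr5-GFPhigh cells of 2 Lgr5-CREPTWT and 2 Lgr5-CREPTKO mice was analysed, grouped by sample title. The authors deposited FPKM values, 1 column per mouse, rounded to 2 decimals. The submitters' processing notes name HISAT, Bowtie2, RSEM and mm10, and the study's methods, which name crypts and intestines, state mapping to GRCm38.p6 transcripts with Bowtie2, RSEM and a model of read counts. The table has no counts, so limma 3.58.1 (R 4.3.3; lmFit, eBayes with intensity trend, Benjamini-Hochberg adjustment) was run on log2(FPKM + 0.5) for 12621 genes whose mean was 0.5 FPKM or more. FPKM is relative to all RNA of a library, so a change in a few abundant genes moves the others. Members and gene lists were chosen with earlier results of these data known. Genes named beside the 10 are those whose genotypes did not overlap with the largest fold changes in each list (up to 3), the 5 nearest profiles, and those said to be named afterwards. Promoters came from RefSeq and UTRs from GENCODE M21, both on GRCm38.p6. Pseudocount, filter, scaling, intensity trend, threshold, replicate block and each mouse left out were varied. Python 3.11.15 with pandas 2.3.3 was used for counts and motifs.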

Additional observations from a re-analysis of the deposited data

How the results depend on the processing

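Under the 9 settings other than leaving out a mouse, all 90 log2 fold changes of the 10 genes kept their direction, none passed the test and limma adjusted p ran from 0.271 to 0.939. The filter, the intensity trend and the replicate block do not enter the fold change, and the pseudocount hardly moves it at these levels. Only the scalings could have changed the direction. With a mouse left out, the log2 fold change ranged from -0.09 to 0.93 for Fos, -0.11 to 1.48 for Fosb, -0.24 to 0.65 for Jun, -0.13 to 0.77 for Junb, -0.07 to 0.40 for Jund, -0.26 to 1.22 for Egr1, -0.88 to 1.36 for Atf3, -0.19 to 0.48 for Ier2, -0.64 to 0.85 for Dusp1 and -0.23 to 0.72 for Zfp36. Each lowest value is the one without Lgr5-CREPTWT mouse 2, and limma adjusted p ran from 0.221 to 0.968. Their median ranged from -0.21 to 0.81. The number of the 10 whose genotypes did not overlap ranged from 0 to 10 higher and from 0 to 8 lower in Lgr5-CREPTKO mice, and was 1 higher without either Lgr5-CREPTKO mouse. Over all genes, the shares with a mouse left out were 35.0% to 37.9% higher and 39.9% to 43.4% lower. With 1 mouse in a genotype, the lone mouse is assumed to vary like the other group.

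Over all genes, 52 were called higher and 337 lower. The counts were 0 and 0 without a filter and with any mouse left out, and 0 and 4 without the intensity trend, while 85 were called higher on TPM. With the replicate number as a block the counts were 15 and 168, 0 of the 10 genes were called and their limma adjusted p ran from 0.271 to 0.892. Same-numbered mice of the 2 genotypes are different animals, and the difference between mice 1 and 2 in one genotype had a correlation of -0.027 with that in the other across genes. Whether same-numbered mice shared a preparation is not given, and a correlation over all genes cannot decide it. The absolute depth is unknown, and 2 mice per genotype limit what could be called.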

Other observations

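The size of the gap between the Lgr5-CREPTWT mice went with gene structure in a way that was noticed after the values were seen and was not tested. The 4 genes of the 10 with 1 exon (Jun, Junb, Jund and Ier2) had a mouse 1 minus mouse 2 difference of 0.47 to 0.90 on the log2 scale with a median of 0.78, and the 6 with introns (Fos, Fosb, Egr1, Atf3, Dusp1 and Zfp36) had one of 0.95 to 2.24 with a median of 1.48. Among other rapidly induced genes with a gene model, the medians were 0.37 for 5 genes with 1 exon and 0.79 for 28 with more, and the ranges overlapped. Over all genes tested that have a gene model, the 260 with 1 exon had a median of -0.05 and the 11126 with more had one of -0.0.

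Several genes outside the 10 had a low value in Lgr5-CREPTWT mouse 2 and sit at other places of the same response. Maff, a small Maf protein, was at 19.61, 5.43, 10.38 and 13.1 FPKM in Lgr5-CREPTWT mice 1 and 2 and Lgr5-CREPTKO mice 1 and 2. Csrnp1, a nuclear protein, was at 13.46, 2.52, 6.3 and 10.56 FPKM, Klf10 at 54.75, 22.27, 32.97 and 42.63 FPKM and Dusp5, a phosphatase of ERK, at 12.62, 3.83, 10.47 and 10.02 FPKM. Each was chosen after its values were seen, and none passed the test between genotypes (limma adjusted p from 0.59 to 0.914).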
